A study of Rattus norvegicus with 53 samples.

Results

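The transcripts of L6 myotubes held for about 7 hours with 20 nM insulin were compared with those of myotubes held as long without insulin. The comparison uses 6 of the 53 arrays of the series, 3 of the insulin culture and 3 of the control culture, chosen by their titles and matched by the letter of the repeat (a, b or c). L6 is a rat skeletal muscle line, grown as myoblasts and fused to myotubes in medium with little serum, then kept for 8 hours without serum in low-glucose DMEM before the course began. The insulin arrays carry RNA of plates given serum-free DMEM with 20 nM insulin, and the control arrays carry RNA of plates given the same medium with 0 nM insulin. Each array holds 1 pool of RNA from plates scraped at 380, 400 and 420 min, so a value is an average over that window and over separate plates. The whole course was repeated on different days with the same line, and the letters are taken to be these repeats. The p-values therefore rest on 3 days of 1 cell line. Their spread is estimated from the pairs of all 9 times of the course, and the times of a letter count as separate although they share its day.

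Insulin binds its receptor tyrosine kinase, whose substrates recruit PI3-kinase, and the kinase Akt is activated downstream. Akt phosphorylates the FOXO transcription factors, which then leave the nucleus, and it relieves the restraint on TORC1, the kinase complex that promotes ribosome production, translation and anabolic metabolism and holds autophagy down. In skeletal muscle the hormone is known for glucose uptake, glycogen and protein synthesis, and a block of protein breakdown.

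Values are log2 levels from RMA, so a difference of 1 is a doubling. A gene is given at its brightest probe set, and 11631 genes were tested. The arrays of hour 7 had medians of 6.33, 6.32 and 6.35 with insulin and 6.33, 6.34 and 6.35 without. The levels fitted the label of differentiated muscle. The myotube transcripts Acta1, the skeletal alpha actin, and Myh3, the embryonic myosin heavy chain, were among the brightest, with means of 13.47 ± 0.40 and 13.43 ± 0.68 in insulin cultures and 13.53 ± 0.33 and 13.47 ± 0.50 in control cultures (SD, n = 3 each). None of the 38 measured myotube markers, 12 myoblast markers or 12 fibroblast markers was called. Over all genes tested 1.51% were called higher and 2.27% lower, so lists this short without a call are near those shares. The array means of the 9 measured macrophage markers lay between 5.88 and 5.93 with insulin and between 5.87 and 6.00 without, below the median of every array. All 5 measured adipocyte markers lay lower with insulin, with array means of 7.10 to 7.13, against 7.28 to 7.33 in controls, and none was called. Letter c stood apart in both cultures, with the creatine kinase transcript Ckm at 8.30 with insulin and 8.41 without, while letters a and b had 10.45 and 10.37 with insulin and 10.41 and 10.02 without. RNA of whole cultures cannot tell fewer cells of a type from less RNA per cell.

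At hour 7, 264 genes were lower with insulin (2.27% of those tested) and 176 were higher (1.51%) at an adjusted p under 0.05 in the paired limma fit. Over the 22143 probe sets tested, 391 were lower (1.77%) and 247 higher (1.12%). List counts below are to be read against the gene shares, 2.27% lower and 1.51% higher. A list with no or few calls can lie near them. Falls were as large as 1.35 log2 units and rises as large as 1.02, with median sizes of -0.45 and 0.45. Of the called genes 10 fell by more than 1 and 1 rose by more than 1. All 440 called genes had 1 sign in all 3 letters, and in 304 of them the insulin arrays did not overlap the control arrays. Over all genes tested, 34.4% had 1 sign in all letters and 9.86% had groups that did not overlap. Before insulin was added, at time 0, the test between the same cultures called 0 genes, with 1102 probe sets at an unadjusted p under 0.05 in limma and 212 without pairing.

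These counts rest on the pairing by letter. Without the letter as a block, limma called 31 genes lower (0.267%) and 6 higher (0.0516%), or 51 probe sets lower (0.23%) and 8 higher (0.0361%). With 1 letter left out of hour 7, 99 genes were lower and 70 higher without letter a, 115 and 41 without letter b, and 78 and 84 without letter c, from 2 pairs each. Of the 264 genes called lower, 55 were called in each of these 3 fits, and of the 176 called higher, 27 were. Relative to time 0, 0.413% of all genes were called lower and 0.241% higher. In the lists 130 of the 1084 genes tested were called, beside 2.27% lower and 1.51% higher over all genes. Without the pairing 15 list genes were called, and relative to time 0, 29. The genes were counted afresh each time, so the 15 and 29 need not be among the 130.

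Several of the largest falls were in genes that FOXO factors are known to induce. Klhl24, an adaptor of a cullin ubiquitin ligase, had levels of 6.42, 6.81 and 6.47 in insulin cultures (letters a, b and c), against 7.88, 8.10 and 7.75 in control cultures. It fell by 1.34 ± 0.20 (SE), or 2.54-fold, with an adjusted p of 0.000473. Every insulin array lay at least 0.9 below the lowest control array.

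Ccng2, cyclin G2, which restrains entry into the cell cycle, stood at 8.29, 8.39 and 9.06 with insulin, against 9.79, 9.75 and 10.13 in controls (-1.31 ± 0.18, adjusted p = 0.000221). Letter c was the highest in both groups, and the groups did not overlap. Pdk4, the kinase that switches off pyruvate dehydrogenase, read 4.93, 5.18 and 5.82 with insulin and 6.20, 6.57 and 6.98 without. Its fall of 1.27 ± 0.18 was 2.42-fold, with an adjusted p of 0.000241. A dimmer probe set of Pdk4 differed by -0.15, with an adjusted p of 0.67, so the size of this fall depends on the probe set. Bcl2l11, which encodes the pro-apoptotic BH3-only protein Bim, had 8.49, 8.20 and 8.32 with insulin and 9.50, 9.34 and 9.90 without (-1.24 ± 0.17, adjusted p = 0.00014). Its dimmer probe set differed by -0.12, with an adjusted p of 0.676.

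Tmem140, which encodes a transmembrane protein, fell the furthest of all called genes, by 1.35 ± 0.16. Its levels were 6.10, 5.67 and 5.60 with insulin, against 7.38, 7.28 and 6.74 in controls (adjusted p = 2.71e-05). The letters were in the same order in both groups. Its promoter is shown because it holds the FOXO motif searched for, GTAAACA, which also stood in the promoters of Bcl2l11, Hbp1, Mxi1 and Pik3ip1. The sequence runs from 250 bases before the RefSeq start to 50 after it (GRCr8, chr4:64503371-64503670, plus strand), and the capitals mark the motif, here as its reverse complement.
Tmem140: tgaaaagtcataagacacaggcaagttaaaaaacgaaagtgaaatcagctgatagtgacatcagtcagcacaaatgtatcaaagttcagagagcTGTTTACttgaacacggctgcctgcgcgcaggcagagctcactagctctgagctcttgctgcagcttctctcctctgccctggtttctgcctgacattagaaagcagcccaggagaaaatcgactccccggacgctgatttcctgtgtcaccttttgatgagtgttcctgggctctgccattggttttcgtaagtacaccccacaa

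**Figure D1:**
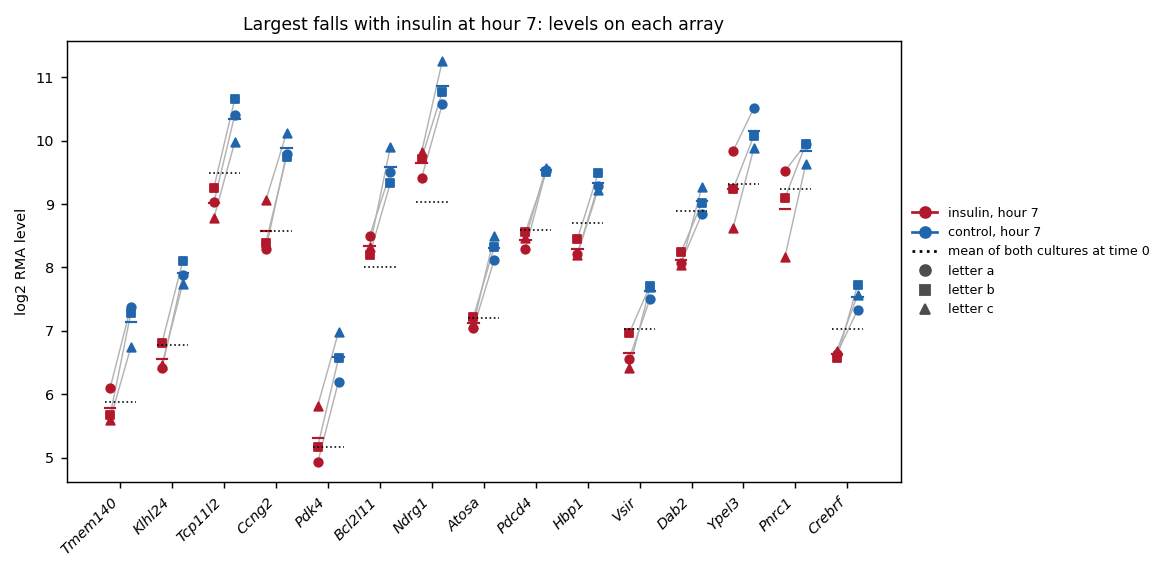
Log2 RMA levels (y axis) of the 15 genes with the largest falls at hour 7. Red points are insulin arrays and blue points control arrays, joined by letter (circle a, square b, triangle c), short bars are group means, and dotted lines are the mean of both cultures at time 0. In all 15 genes the 3 insulin arrays lie below the 3 control arrays. The same arrays ranked the genes, and over all genes tested 9.86% had groups that did not overlap.

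Other genes among the 15 largest falls had various roles. Ndrg1, a gene that hypoxia and other stresses raise, read 9.41, 9.72 and 9.82 with insulin and 10.58, 10.77 and 11.26 without. Its fall of 1.22 ± 0.10 had the lowest adjusted p of the named genes, 5.63e-07. The lowest control array lay 0.75 or more above the highest insulin array. Pdcd4, whose protein blocks the helicase eIF4A, had 8.29, 8.56 and 8.46 with insulin and 9.53, 9.51 and 9.58 without. The control levels lay within 0.1 of each other, and the fall was 1.11 ± 0.12 (adjusted p = 1.07e-05). Hbp1, a repressor of growth genes, had 8.21, 8.45 and 8.20 with insulin and 9.29, 9.49 and 9.23 without, a fall of 1.05 ± 0.11. Tcp11l2 (-1.32), Atosa (-1.19), Vsir, which encodes the immune checkpoint protein VISTA (-0.99), Dab2, an endocytic adaptor (-0.93), Ypel3 (-0.92), Pnrc1, a nuclear receptor coactivator (-0.91), and Crebrf, a regulator of the factor CREB3 (-0.91), completed the 15 largest falls. Of the 15, 14 were called with any letter left out. The exception, Pnrc1, had adjusted p-values of 0.0666 without letter b and 0.25 without letter c. Without the pairing 9 of the 15 were called, and Tmem140, Tcp11l2, Pdk4, Bcl2l11, Ypel3 and Pnrc1 were not.

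Of the 29 measured genes in the list of FOXO factors and FOXO-induced genes, 14 fell and 1 rose, with a median difference of -0.31, against -0.0036 over all genes. Beside those above, Pik3ip1, an inhibitor of PI3-kinase, fell by 0.87, Txnip, which restrains glucose uptake, by 0.76, Sesn1, a sestrin that holds TORC1 down, by 0.69, and Cdkn1b, the Cdk inhibitor p27, by 0.52. A dimmer probe set of Pik3ip1, with a mean level of 5.29, differed by 0.004 (adjusted p = 0.994). The pocket protein Rbl2 fell by 0.58. The transcripts of the factors themselves moved less. Foxo3 had 9.34, 9.12 and 8.76 with insulin and 9.71, 9.38 and 9.06 without, a fall of 0.31 (adjusted p = 0.0393) with overlapping groups. Foxo1 differed by -0.10 (adjusted p = 0.793). The 1 member that rose was Eif4ebp1, a translation repressor that TORC1 phosphorylates, by 0.41. The list had medians of -0.37, -0.26 and -0.35 in letters a, b and c at hour 7, and of -0.06 at time 0. With letters a, b and c left out in turn, 11, 9 and 8 of its members were called lower, and 6 were relative to time 0 and 4 without the pairing. Foxo3 was lost with each letter left out (adjusted p of 0.275, 0.126 and 0.186). Txnip was lost without letter a (0.0689) and without letter c (0.106).

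The motif GTAAACA, searched on both strands, stood in the promoters of 25 of the 218 genes called lower that RefSeq matched (11.5%) and of 1 of the 152 called higher (0.658%). Over all genes tested it stood in 2.28% of promoters, and over all 27457 promoters of the table in 3.76%. Promoters had a median GC content of 61.2% in genes called lower, 60.8% in genes called higher and 60.7% in all genes tested. A match is a run of letters and not a measured site, and no binding was assayed. Klhl24, Ccng2 and Pdk4 had no match in this window.

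Autophagy genes were also among the falls. Of the 35 measured members of the autophagy list 9 fell and none rose, with a median of -0.15, and 31 of the 35 lay below 0. Bnip3l, a receptor that marks mitochondria for autophagy, had 9.02, 9.18 and 8.85 with insulin and 9.62, 9.70 and 9.70 without (-0.66 ± 0.07, adjusted p = 9.34e-06). The groups were apart by more than 0.4. Gabarapl1, an Atg8 family protein, read 7.98, 8.08 and 7.80 with insulin and 8.43, 8.53 and 8.43 without, a fall of 0.51. It held with any letter left out, but not without the pairing (adjusted p = 0.0563). Ulk1 (-0.49), Atg13 (-0.49) and Rb1cc1 (-0.56) belong to the kinase complex that starts autophagosomes, and Pik3c3 (-0.40) and Atg14 (-0.65) to the lipid kinase complex that follows it. Zfyve1 (-0.48) and the cargo receptor Sqstm1 (-0.30) completed the falls. Atg14 was lost with each letter left out (adjusted p of 0.126, 0.085 and 0.0949 without a, b and c), Rb1cc1 without letter c (0.074) and Pik3c3 without letters a and c (0.0582 and 0.101). Counts for the list were 7, 5 and 2 lower without a, b and c, 1 relative to time 0 and 2 without the pairing. In the lysosome list 2 of 36 fell, Slc17a5, the sialic acid exporter (-0.83, adjusted p = 1.56e-05), and the protease Ctsf (-0.27), which was lost with each letter left out (adjusted p of 0.201, 0.163 and 0.157 without a, b and c). None of the 37 proteasome subunits was called, near the shares over all genes (1.51% higher and 2.27% lower), and their median was 0.03. The muscle ubiquitin ligase Trim63 had 6.79, 6.42 and 4.82 with insulin and 7.14, 6.36 and 5.12 without, a difference of -0.19 (adjusted p = 0.654). Letter c was lower than the others in both groups.

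Ribosome biogenesis, the longest list, had the most rises. Of its 81 measured factors 26 rose and none fell, against 1.51% higher and 2.27% lower over all genes. The share was larger in the sterol list, with 8 of 22. The median difference of the ribosome biogenesis list was 0.26, and 77 lay above 0. Gnl3, nucleostemin, a nucleolar GTPase, had 10.39, 10.20 and 9.91 with insulin and 9.77, 9.55 and 9.45 without (0.58 ± 0.07, adjusted p = 2.71e-05). Each letter gave a rise of 0.46 or more, although the lowest insulin array lay close to the highest control array. Gar1, of the snoRNPs that guide pseudouridylation, had 9.63, 9.90 and 9.63 with insulin and 9.09, 9.21 and 9.04 without, a rise of 0.61 ± 0.10. Nop56, a core protein of box C/D snoRNPs, rose by 0.57 and Ppan by 0.64. Ppan was lost with each letter left out (adjusted p of 0.213, 0.192 and 0.0944 without a, b and c). The medians of the list were 0.22, 0.34 and 0.26 in letters a, b and c, and 0.05 at time 0. The calls on it numbered 14, 8 and 12 without letters a, b and c, 3 relative to time 0 and 0 without the pairing.

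Of 31 measured genes of RNA polymerases I and III 4 rose, 1 fell and 26 were not called, with a median of 0.11. The rises were in subunits of RNA polymerase I, which makes the ribosomal RNA, Polr1g by 0.59, Polr1e by 0.55, Polr1f by 0.48 and Polr1b by 0.42. Genes of the list called higher numbered 3, 2 and 4 without letters a, b and c, and 0 without the pairing. Those without letter c include a gene other than these 4, since Polr1e was lost there. The fall was Maf1. Maf1, the repressor of RNA polymerase III that TORC1 phosphorylates, had 9.24, 9.32 and 8.95 with insulin and 9.70, 9.78 and 9.64 without. It fell by 0.54 ± 0.08 (adjusted p = 0.00043), with groups apart by 0.3 or more. Polr1g was lost without letters a and b (adjusted p of 0.101 and 0.172) and Polr1e without letter c (0.165). None of the 42 measured cytosolic ribosomal protein genes was called, again near the shares over all genes, and their median was 0.01. Among 45 translation factors 2 rose, the helicase Eif4a1 by 0.43 and Eef1e1, of the aminoacyl-tRNA synthetase complex, by 0.58. Eif4a1 was lost without letter c (0.186), and Eef1e1 without letters b and c (0.0718 and 0.186).

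**Figure D2:**
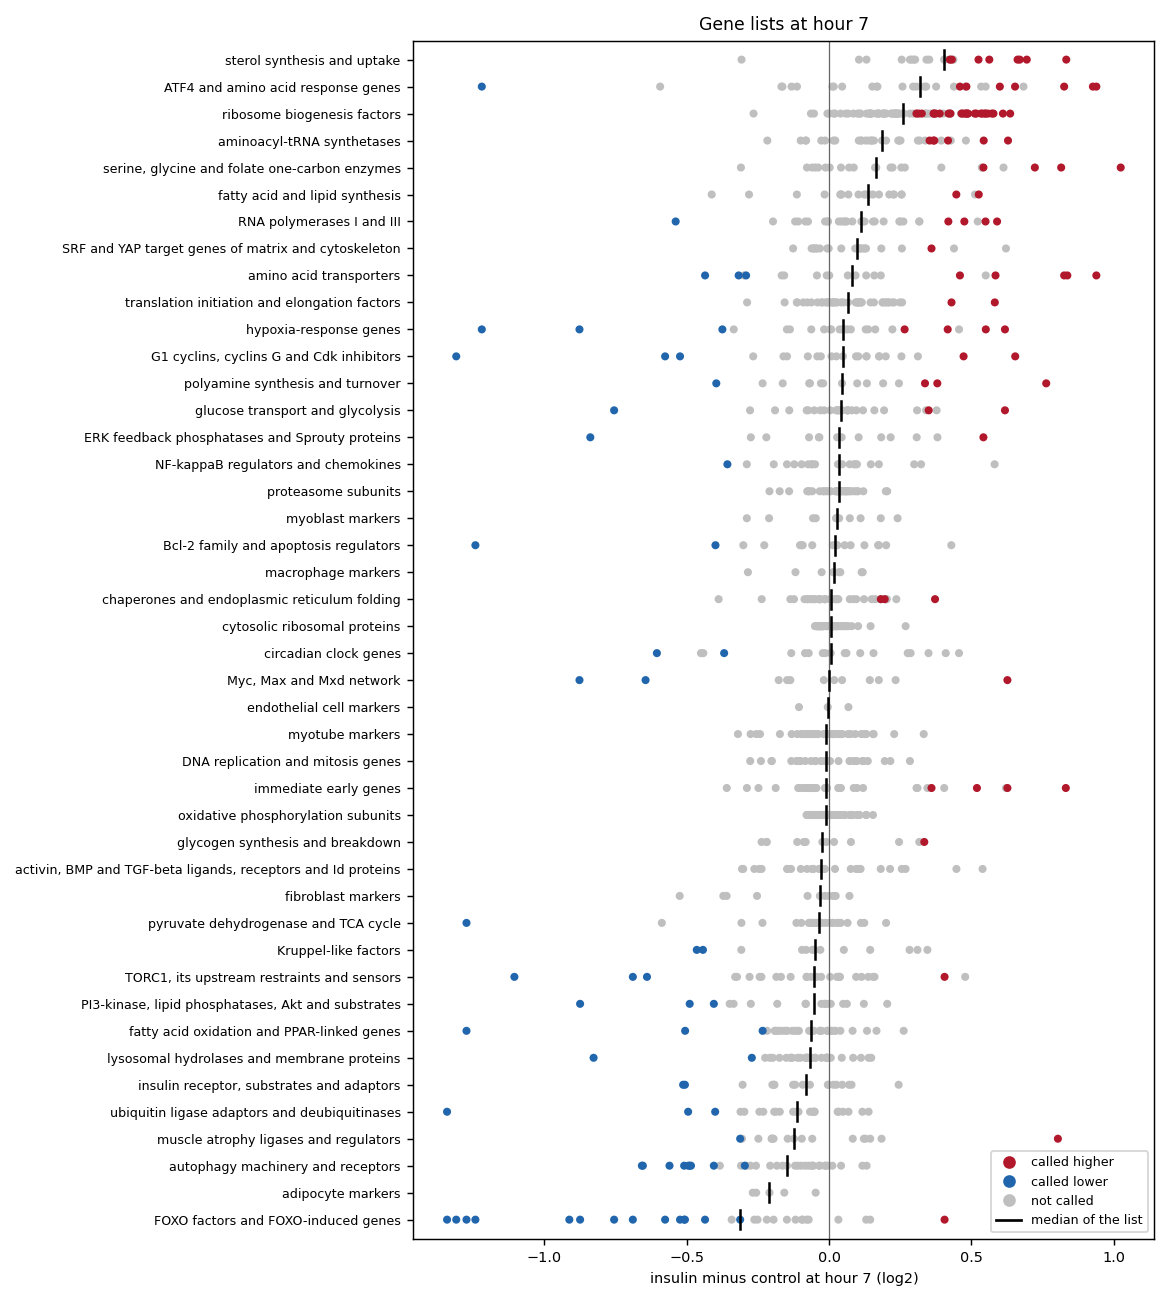
Insulin minus control at hour 7 (x axis, log2) for each measured member of 44 gene lists, sorted by the median of the list (black bar). Red points are called higher, blue points called lower and grey points not called. Sterol, amino acid response and ribosome biogenesis genes stand highest, with medians of 0.41, 0.32 and 0.26, and FOXO genes lowest, at -0.31.

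Gpatch4, which encodes a G-patch protein, was among the largest rises, with 8.11, 8.10 and 7.45 with insulin and 7.41, 7.16 and 6.53 without (0.85 ± 0.10, adjusted p = 2.71e-05). Its promoter is shown for the E-box CACGTG, the letters that Myc with Max bind. It lies on the plus strand at chr2:175807512-175807811 (GRCr8), with the E-box in capitals.
Gpatch4: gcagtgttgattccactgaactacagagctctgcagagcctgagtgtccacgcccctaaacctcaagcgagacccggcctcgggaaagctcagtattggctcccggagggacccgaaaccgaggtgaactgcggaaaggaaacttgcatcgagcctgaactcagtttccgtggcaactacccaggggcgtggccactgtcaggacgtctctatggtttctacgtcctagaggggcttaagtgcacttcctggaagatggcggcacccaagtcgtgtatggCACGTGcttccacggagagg
The E-box, which reads the same on both strands, stood in 39 of 152 promoters of genes called higher (25.7%), in 26 of 218 of genes called lower (11.9%) and in 9.5% of promoters of all genes tested. Gnl3, Nop2, Bysl, Srm and Slc7a5 were among the 39. Myc itself had 8.60, 8.14 and 7.77 with insulin and 7.98, 7.33 and 7.32 without, a rise of 0.63 ± 0.13 (adjusted p = 0.00861) in which the groups overlapped. It was lost without letter a (0.071) and without letter b (0.123). Of the proteins that compete with Myc for Max, Mxi1 had 9.22, 9.31 and 8.93 with insulin and 10.12, 9.94 and 10.04 without. It fell by 0.88 ± 0.10 (adjusted p = 1.1e-05), in every letter and without the pairing as well. Mxd4 fell by 0.64 and was lost with each letter left out (adjusted p of 0.116, 0.0893 and 0.448 without a, b and c).

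Genes of amino acid supply gave several of the largest rises. Mthfd2, the mitochondrial folate enzyme that makes one-carbon units for purines, read 9.45, 9.10 and 9.04 with insulin and 8.63, 7.84 and 8.05 without. It rose by 1.02 ± 0.11, or 2.03-fold (adjusted p = 1.1e-05), the groups did not overlap, and the call held without the pairing (0.00145). Psph, the last enzyme of serine synthesis, had 9.53, 10.10 and 9.62 with insulin and 8.84, 8.96 and 8.99 without, a rise of 0.82. Psat1, the step before it, rose by 0.72. Psph was lost without letter b (0.085), and Psat1 without letters a and b (0.0886 and 0.347). Of 23 one-carbon and serine enzymes 4 rose and none fell.

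The list of ATF4 and amino acid response genes had 7 rises and 1 fall among 30, with a median of 0.32, and the fall was Ndrg1. Without letters a, b and c the rises numbered 4, 1 and 6, relative to time 0 there were 2, and without the pairing 1, with 1 fall each time. ATF4 is the factor that raises amino acid transporters, synthetases and biosynthetic enzymes, and its own transcript rose by 0.48. Trib3, a pseudokinase that ATF4 induces, had 8.45, 8.34 and 7.78 with insulin and 7.72, 6.93 and 7.13 without (0.93 ± 0.19, adjusted p = 0.0077). Its lowest insulin array was close above its highest control array. Dimmer probe sets of Trib3 gave larger rises, of 1.67 and 1.44. Its promoter is shown for the motif TGATGNAA, which ATF4 with a C/EBP protein binds (GRCr8, chr3:161275484-161275783, minus strand). The capitals mark the motif as its reverse complement.
Trib3: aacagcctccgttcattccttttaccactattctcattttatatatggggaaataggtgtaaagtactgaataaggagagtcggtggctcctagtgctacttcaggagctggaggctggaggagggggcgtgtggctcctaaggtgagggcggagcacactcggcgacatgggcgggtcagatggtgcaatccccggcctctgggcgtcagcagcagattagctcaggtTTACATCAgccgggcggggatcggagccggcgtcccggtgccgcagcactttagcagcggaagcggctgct
The motif stood in 14 of 152 promoters of genes called higher (9.21%), in 7 of 218 of genes called lower (3.21%) and in 2.02% of those of all genes tested. A run that holds both this motif and GTAAACA is possible and counts for each. Slc7a1, Yars1, Cars1, Nars1 and Tars1 were among the 14.

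Transporters of amino acids were called in both directions, with 5 of 20 higher and 3 lower. Without letters a, b and c the list had 4, 2 and 5 genes called higher and 0, 0 and 1 called lower. Relative to time 0 there were 3 higher and 0 lower, and without the pairing 1 higher and 0 lower. Slc7a1, which carries arginine and lysine, had 10.17, 10.09 and 9.85 with insulin and 9.38, 9.24 and 8.98 without (0.84 ± 0.11, adjusted p = 0.00011). Every insulin array lay above every control array, and the call held without the pairing (0.0421). Slc7a5, which carries leucine and other large neutral amino acids, had 9.52, 8.89 and 8.26 with insulin and 8.84, 7.84 and 7.51 without. The groups overlapped because the letters differed, while each letter gave a rise, and the paired rise was 0.83 ± 0.13 (adjusted p = 0.000554). At time 0 Slc7a5 differed the other way, by -0.71, and relative to time 0 its rise was 1.53. Slc7a11, the cystine and glutamate exchanger, rose by 0.94 ± 0.26 (adjusted p = 0.0489), with 7.25, 7.47 and 6.58 with insulin and 6.92, 5.87 and 5.68 without. It was lost without letters b and c (0.428 and 0.22). Slc1a4 rose by 0.58 and Slc3a2, the heavy chain partner of Slc7a5, by 0.46. The 3 that fell were Slc38a9, the lysosomal arginine sensor of TORC1 (-0.44), Slc38a2 (-0.32) and Slc43a2 (-0.29). Slc1a4 was lost without letters a and b (0.168 and 0.434).

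Aminoacyl-tRNA synthetases and their partners, which charge tRNAs with amino acids, rose in 6 of 33 cases and fell in none, with a median of 0.19. Yars1 had 10.80, 10.93 and 10.44 with insulin and 10.20, 10.01 and 10.07 without, a rise of 0.63. Cars1 rose by 0.54, Aimp2 by 0.42 and Nars1 by 0.37. Yars1 was lost without letter b (0.0836), Cars1 without letters a and b (0.141 and 0.348), Aimp2 without letters b and c (0.0862 and 0.1), and Nars1 with each letter left out (0.108, 0.409 and 0.0513 without a, b and c). Without letter b none of the list was called, against 2 without letter a and 5 without letter c, and without the pairing none was. Letter b had the largest median of the 3 letters, 0.33. Of the polyamine enzymes Srm, spermidine synthase, had 9.78, 9.67 and 9.29 with insulin and 8.91, 8.72 and 8.83 without. It rose by 0.76 ± 0.18 (adjusted p = 0.0181) with groups that did not overlap, and it was lost without letters a and b (0.158 and 0.173).

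**Figure D3:**
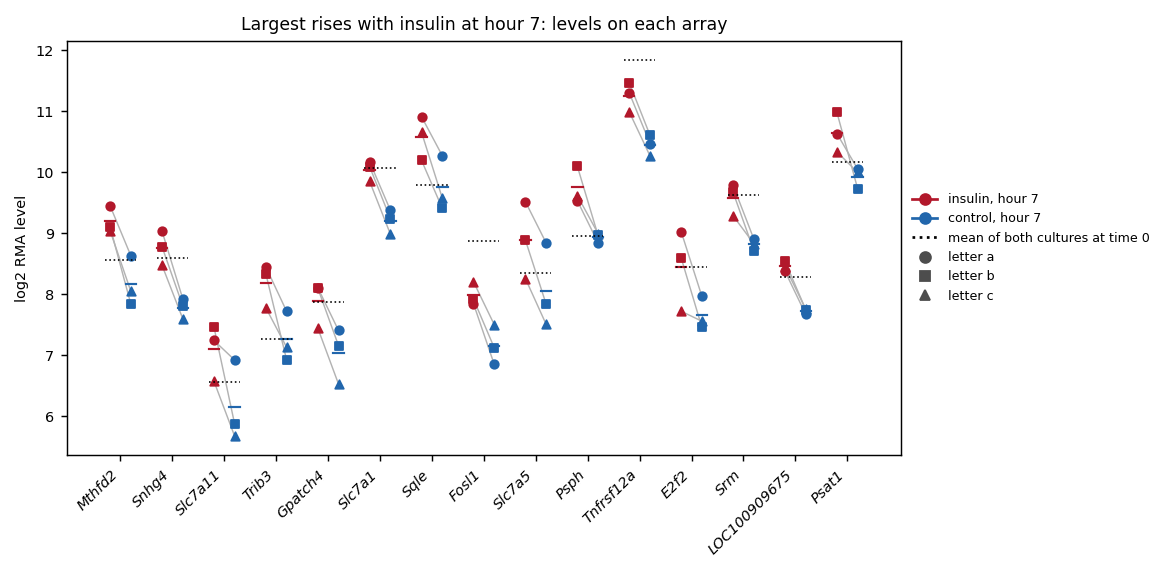
Log2 RMA levels (y axis) of the 15 genes with the largest rises at hour 7, drawn as for the falls: red insulin arrays left of blue control arrays, joined by letter, with group means and the mean of both cultures at time 0. Each letter rises in all 15 by the rule that chose them. In 11 of the 15 the groups do not overlap, against 9.86% of all genes tested, and the same arrays ranked the genes.

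Among the remaining largest rises, Snhg4, a noncoding host gene of snoRNAs, had 9.04, 8.78 and 8.48 with insulin and 7.93, 7.81 and 7.60 without (0.99 ± 0.15, adjusted p = 0.000559). Tnfrsf12a, the receptor Fn14, rose by 0.80, E2f2, a cell cycle transcription factor, by 0.79, Fosl1, the AP-1 protein Fra-1, by 0.83, and the noncoding RNA LOC100909675 by 0.73. Of the 15 largest rises 7 were called with any letter left out, Mthfd2, Snhg4, Gpatch4, Slc7a1, Sqle, Slc7a5 and LOC100909675, and 2 without the pairing, Mthfd2 and Slc7a1. Fosl1 was lost with each letter left out (adjusted p of 0.241, 0.143 and 0.134 without a, b and c), Tnfrsf12a without letters a and b (0.062 and 0.0661), E2f2 likewise (0.0935 and 0.0959), and Trib3 without letter b (0.165).

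Sterol synthesis was the list with the highest median, 0.41, with 8 of 22 genes called higher, none lower and 21 above 0. Sqle, squalene epoxidase, had 10.91, 10.19 and 10.65 with insulin and 10.27, 9.41 and 9.57 without (0.83 ± 0.12, adjusted p = 0.000383). The groups overlapped, since letter a was high in both, and each letter rose by 0.6 or more. Mvd and Idi1 of the mevalonate path rose by 0.69 and 0.67, Acat2 by 0.66 and Cyp51 by 0.56. Letters a and b gave the list medians of 0.26 and 0.25. Letter c, which had the lowest Ckm levels in both cultures, gave 0.60, and the part of the myotube content in this was not tested. Without letters a, b and c the list had 3, 2 and 1 calls, and without the pairing 0. Mvd was lost with each letter left out (adjusted p of 0.126, 0.0666 and 0.523 without a, b and c), Idi1 without letters b and c (0.0826 and 0.408) and Acat2 without letter c (0.102). Of the enzymes of fatty acid synthesis Fasn had 11.18, 10.59 and 10.78 with insulin and 10.81, 9.95 and 10.21 without. It rose by 0.53 ± 0.07 (adjusted p = 0.000161), in every letter, and held with any letter left out. The groups of Fasn overlapped, and it was not called without the pairing (adjusted p = 0.907). Acly, which makes cytosolic acetyl-CoA, rose by 0.45 and was lost without letters a and c (0.108 and 0.177). Srebf1, the factor that drives fatty acid synthesis genes, differed by -0.02 (adjusted p = 0.988), with 10.62, 10.41 and 10.09 in insulin cultures and 10.65, 10.05 and 10.47 in control cultures.

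Genes of fuel use moved in few cases. Cpt1a, which admits fatty acids to mitochondria, had 9.57, 9.90 and 9.58 with insulin and 10.22, 10.21 and 10.14 without, a fall of 0.51 (adjusted p = 0.00601) that was lost without letters a and c (0.107 and 0.0766). With Pdk4 and Acadl (-0.23) it made 3 falls among 32 genes of fatty acid oxidation. Acadl was lost with each letter left out (adjusted p of 0.134, 0.143 and 0.389 without a, b and c). None of the 56 subunits of oxidative phosphorylation was called, near the shares over all genes, and they lay between -0.08 and 0.15. Slc2a1, the glucose carrier GLUT1, had 8.09, 8.15 and 8.39 with insulin and 7.57, 7.47 and 7.73 without, a rise of 0.62 ± 0.11 (adjusted p = 0.00224). All insulin arrays lay above all control arrays, and the call held with any letter left out, but not without the pairing (adjusted p = 0.503). Slc2a4, the insulin-regulated carrier GLUT4, differed by 0.07 (adjusted p = 0.882), Hk2, hexokinase 2, by 0.31 (0.609) and Gys1, muscle glycogen synthase, by 0.32 (0.274). Hk2 and Gys1 had overlapping groups. Hk2 ran from 5.63 to 7.08 with insulin and from 5.68 to 6.68 without. Slc16a1, a lactate carrier, rose by 0.35 and was lost without letters b and c (0.229 and 0.16). Vegfa, the angiogenic factor, rose by 0.55 and was lost with each letter left out (0.244, 0.136 and 0.0772 without a, b and c). In the hypoxia list 4 of 24 rose and 3 fell, Ndrg1 and Mxi1 among the falls.

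Upstream, in the insulin path itself, the calls were falls. Irs2, an insulin receptor substrate that FOXO factors induce, had 7.23, 7.12 and 6.97 with insulin and 7.49, 7.65 and 7.71 without. It fell by 0.51 ± 0.11 (adjusted p = 0.00846) with groups that did not overlap, and was lost without letters b and c (0.0745 and 0.185). The adaptor Gab1 fell by 0.51 and held with any letter left out, but not without the pairing (adjusted p = 0.783). They were the 2 calls among 18 receptors, substrates and adaptors. Insr (-0.09, adjusted p = 0.863), Igf1r (-0.19, 0.361) and Irs1 (0.24, 0.556) were not called, and neither was Pik3r1, the regulatory subunit of PI3-kinase (-0.08, 0.851). Among 18 genes of PI3-kinase, phosphatases and Akt, Pik3ip1, Inpp5k and Pik3c3 fell and none rose. Inpp5k, a phosphatase of phosphoinositides, fell by 0.49 with overlapping groups and was lost without letters a and c (0.108 and 0.285). In the list of TORC1 and its restraints Pdcd4, Sesn1 and Ddit4l, a relative of the TORC1 inhibitor REDD1 (-0.64), fell and Eif4ebp1 rose, of 28. Sesn1 was lost without letters a and c (0.0887 and 0.0538), Ddit4l without letters a and b (0.203 and 0.116) and Eif4ebp1 without letter b (0.0859).

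Genes of growth control moved both ways. Ccnd1, cyclin D1, which opens G1, had 12.22, 12.47 and 12.54 with insulin and 11.49, 11.86 and 11.91 without, a rise of 0.65 ± 0.14 (adjusted p = 0.00973). The groups did not overlap, and the call was lost with each letter left out (0.105, 0.063 and 0.0735 without a, b and c). Cdkn1b had 10.54, 10.31 and 9.86 with insulin and 11.00, 10.66 and 10.62 without, and its fall was lost without letter c (0.186). None of the 28 genes of DNA replication and mitosis was called, near the shares over all genes (1.51% higher and 2.27% lower). Of 32 immediate early genes 4 rose, Fosl1, Myc, Ier2 (0.52) and Srf (0.36). Egr1, the early growth response factor, was not called, and averaged 8.86 ± 0.81 with insulin and 8.45 ± 0.61 without (SD, n = 3 each), a difference of 0.40 (adjusted p = 0.377). Of 14 phosphatases and Sprouty proteins that damp ERK signals 12 were not called, while Dusp6, a phosphatase of ERK, rose by 0.54 and Dusp1, another MAP kinase phosphatase, fell by 0.84. Ier2 was lost without letters a and b (0.0775 and 0.285), Srf with each letter left out (0.131, 0.0836 and 0.25 without a, b and c), Dusp6 without letter b (0.0556) and Dusp1 without letters b and c (0.0793 and 0.247). The clock repressor Nr1d2, REV-ERB beta, had 8.75, 9.04 and 8.74 with insulin and 9.31, 9.62 and 9.42 without, a fall of 0.60 ± 0.08 that held with any letter left out. The clock output factor Dbp fell by 0.37 and was lost with each letter left out (0.137, 0.0939 and 0.0927 without a, b and c). Of 13 Kruppel-like factors Klf9 fell by 0.44 and Klf11 by 0.46, and Klf11 was lost without letters a and c (0.121 and 0.22). Klf15 differed by 0.14 (adjusted p = 0.727).

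Fewer genes were called at the earlier hours. At hour 1 limma called 0 genes in either direction. At hours 2 and 3, 0.0516% and 0.12% of all genes were called lower, among them 1 and 6 of the 15 largest falls of hour 7. Hour 3 rests on 2 pairs and the other hours on 3, so its counts are not on the same footing. At hours 4, 5, 6 and 8 the shares were 0.834%, 1.75%, 2.23% and 4.14%, and all 15 were among them each time. Higher calls made up 0.0344% of genes at hour 2 and again at hour 3, with none of the 15 largest rises. At hours 4, 5, 6 and 8 they made up 0.516%, 2.07%, 1.61% and 2.92%, and included 5, 11, 13 and 15 of the rises. The 15 falls and 15 rises were ranked by their difference at hour 7, but every hour follows the same cultures on the same days and enters the estimate of the spread behind the calls, so the hours are not independent of that choice. Pdk4 differed by 0.16 at hour 1, -0.92 at hour 2, -1.42 at hour 6, -1.27 at hour 7 and -1.39 at hour 8, and the difference at hour 2 was not called (adjusted p = 0.0662). Klhl24 had 0.10, -0.03, -1.54, -1.34 and -1.51 at the same hours, and the timing of the genes was not compared by a test. Irs2 was at -0.55 by hour 2 and at -0.51 at hour 7. Mthfd2 stood at -0.17, -0.10, 1.11, 1.02 and 1.05, and Srm went on to 1.11 at hour 8, above its 0.76 at hour 7.

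**Figure D4:**
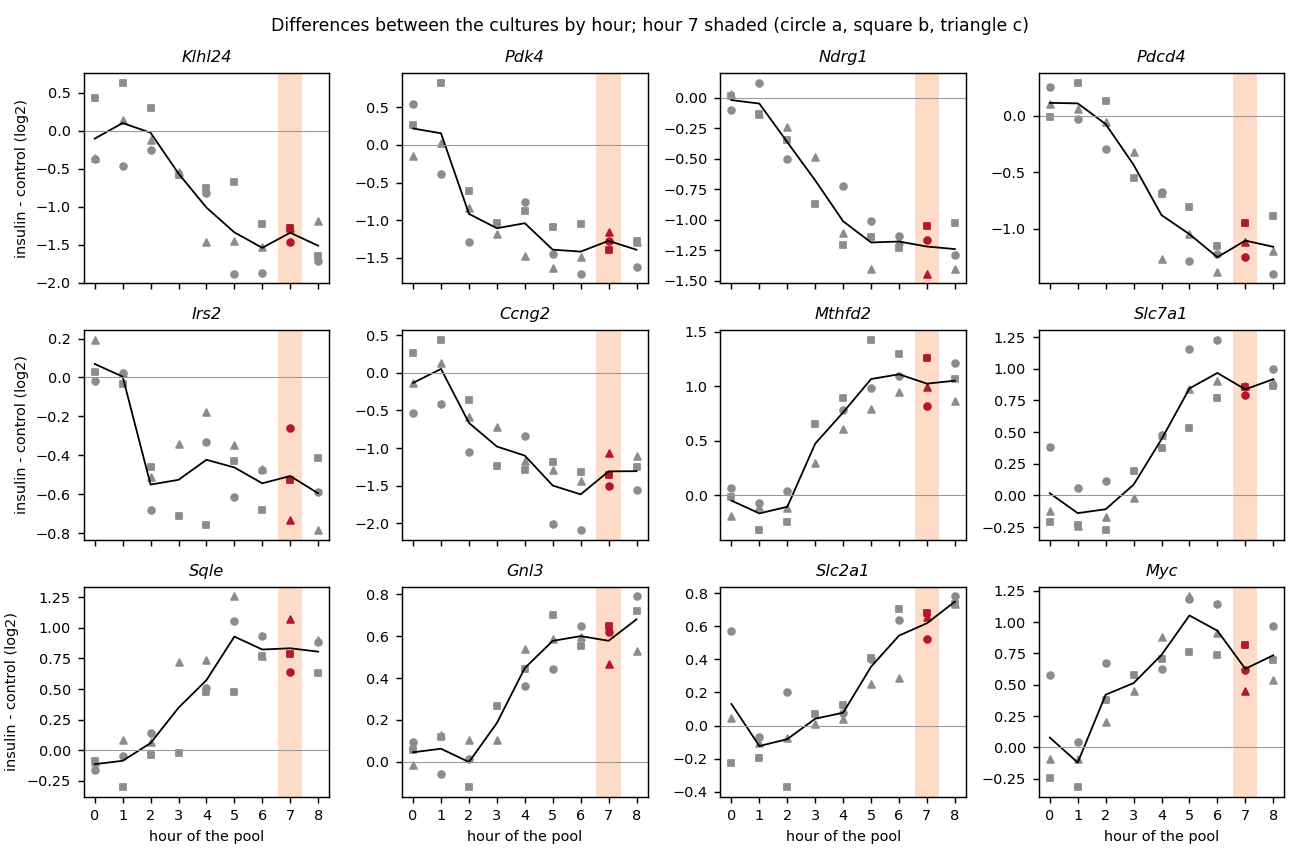
Insulin minus control (y axis, log2) against the hour of the pool (x axis) for 12 genes. Points are letters (circle a, square b, triangle c), black lines join their means, and hour 7 is shaded with its points in red. The means of hours 6, 7 and 8 lie near each other, and those of hour 1 near 0.

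Set directly against its neighbours, hour 7 gave no calls. No gene was called between hour 7 and the mean of hours 6 and 8 in limma. Of the 22143 probe sets tested, 182 had an unadjusted p under 0.05 (80 without pairing). That is a smaller share than the 0.05 that chance alone would give. The test was thus conservative, and it cannot show that the hours are alike. Against the mean of hours 1 and 2, 143 genes had a lower difference at hour 7 (1.23%) and 154 a higher one (1.32%). Of the 15 largest falls 13 passed this test, as did 12 of the 15 largest rises, on hour 7 arrays that also chose them. Without the pairing 3 of the falls passed, Atosa, Pdcd4 and Dab2, and 1 of the rises, Mthfd2. Ypel3 and Pnrc1 were the falls that did not. Pnrc1 had -0.54 at hour 1, -1.15 at hour 2 and -1.74 at hour 3, against -0.91 at hour 7.

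A difference between cultures can come from movement in either. Relative to its own time 0, the insulin culture had 320 genes higher (2.75%) and 228 lower (1.96%) at hour 7, and the control culture had 965 higher (8.3%) and 453 lower (3.89%). These changes use the arrays of the hour 7 comparison and are given beside it. They were fitted in limma on the hour minus time 0 difference of each letter and culture, over all hours. Each time 0 array serves every hour of its letter and culture, while the fit counts these differences as separate. Pdk4 changed by 0.02 ± 0.38 in the insulin culture and by 1.52 ± 0.38 in the control culture, and Klhl24 by -0.16 ± 0.20 with insulin and by 1.08 ± 0.20 without. Over the 15 falls the change had a median of -0.15 in the insulin culture and 1.01 in the control culture. Of the 15, none was called up and 2 were called down in the insulin culture, Hbp1 and Dab2, while 13 were called up in the control culture. Without the pairing the numbers were 0 up and 1 down, Dab2, in the insulin culture and 10 up in the control culture. Dab2 was of the other kind, with a change of -0.79 with insulin and 0.18 without.

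For the 15 rises the medians were 0.26 in the insulin culture and -0.65 in the control culture. Sqle changed by 0.85 in the insulin culture and by -0.09 in the control culture, and Trib3 by 0.95 with insulin and -0.04 without. Slc7a1 changed by -0.04 with insulin and -0.86 without, and Srm by 0.00 with insulin and -0.86 without. By list, the ribosome biogenesis factors had a median change of -0.03 with insulin and -0.28 without, and of the 81 factors 0 were called down with insulin and 24 without. Sterol genes had a median of 0.61 with insulin and 0.13 without, and of the 22 genes 18 were called up with insulin and 4 without. FOXO genes had -0.04 with insulin and 0.24 without, and of the 29 genes 3 were called up and 4 down with insulin, against 11 up and 1 down without. Fosl1 and Tnfrsf12a were lower than at time 0 in both cultures, by 1.00 and 0.62 with insulin and by 1.61 and 1.37 without.

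**Figure D5:**
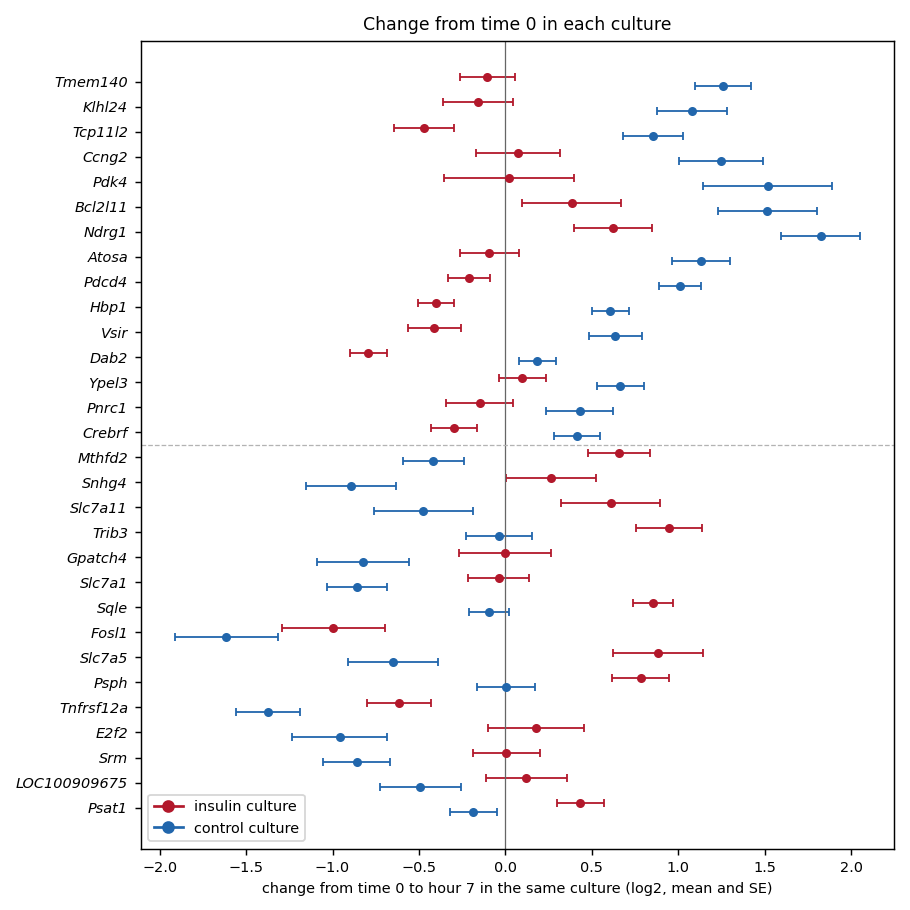
Change from time 0 to hour 7 within each culture (x axis, log2, mean of 3 letters) for the 15 largest falls (above the dashed line) and the 15 largest rises. Bars are SEs of the limma fit, whose spread is shared by both cultures and all hours. Red is the insulin culture, drawn above blue, the control culture. Most of the falls sit near 0 in the insulin culture and above 0 in the control culture.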

How the data were processed

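The authors subtracted background, quantile-normalized the arrays and summarized probes with RMA (version not given in the sources used here), and deposited log2 values of 31099 probe sets on Affymetrix rat genome arrays, 53 in all, from 18 combinations of culture and hour. Here 57 controls of the manufacturer and probe sets with a mean log2 value under 5 were left out, leaving 22143. Detection calls were not used here. The platform annotation gave 20826 probe sets 1 symbol, 436 several and 9780 none, and each gene is its brightest tested probe set. The insulin minus control difference of each letter and time (26 pairs, 9 times) was fitted in limma 3.58.1 (R 4.3.3, lmFit and eBayes with trend) with 1 mean per time. All times share the spread (17 residual degrees of freedom), since hour 7 alone leaves 2. The tests were two-sided, with Benjamini-Hochberg adjustment over all probe sets tested and a threshold of 0.05. The control of hour 3, letter a, has no partner and was not used in the paired fit. The median SE of a difference at hour 7 was 0.11 in the paired fit and 0.14 without the block, and few arrays bound how precise it can be.

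The titles give the letters, and the methods of the paper state that the course was repeated on different days. That a letter stands for a day was taken from this, since the titles name no day. Deviations from the group means correlated between same-lettered arrays at 0.206 to 0.787 in all 26 pairs, and at 0.506 to 0.692 at hour 7, so the letters were used as pairs. The fit was tested on simulated data with the same pairs and times, but with independent noise in each pair. That run held no shared day, so it cannot tell how the shared day bears on the calls.

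Named genes are the 15 largest rises and 15 largest falls among called genes with 1 sign in all letters, up to 4 called members of each of 44 lists by size, and 20 fixed genes, of which Fbxo32 was under the mean level of 5. Further called members are named where a list is described, chosen after their values were seen. Members and lists were chosen with earlier results of these data known. Promoters are those of RefSeq (GRCr8). Alternatives tried were the fit without the block, the 6 arrays alone, other filters, no variance trend, arrays centred on their median, differences relative to time 0, each letter left out, and the mean over a gene's probe sets.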

Additional observations from a re-analysis of the deposited data

Results flagged for a closer look

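For 25 of the 30 genes with the largest changes, the difference at hour 7 was set apart from the mean of hours 1 and 2 by a test of that change itself (limma, adjusted p under 0.05), and the values below are the hour 7 difference minus that of hours 1 and 2 on the log2 scale. The hour 7 arrays used here also chose the genes. Without the pairing by letter 3 of these falls, Atosa, Pdcd4 and Dab2, and 1 of the rises, Mthfd2, passed this test, and over all probe sets 9 did, against 441 with it. Among the falls, the change was -1.40 for Tcp11l2, -1.38 for Klhl24, -1.25 for Atosa, -1.13 for Pdcd4, -1.02 for Tmem140, -1.01 for Ndrg1, -1.002 for Ccng2, -0.97 for Bcl2l11, -0.94 for Hbp1, -0.94 for Dab2, -0.89 for Pdk4, -0.78 for Vsir and -0.68 for Crebrf. Among the rises, it was 1.39 for Slc7a5, 1.16 for Mthfd2, 1.12 for Srm, 1.11 for Snhg4, 1.03 for Trib3, 0.96 for Slc7a1, 0.91 for Gpatch4, 0.91 for Tnfrsf12a, 0.90 for Psph, 0.85 for Sqle, 0.85 for E2f2 and 0.70 for LOC100909675. Slc7a5 had the largest of the rises and started from -0.71 at time 0.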

How the results depend on the processing

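The 638 probe sets called (176 genes higher, 264 lower) became 59 (6 and 31) without the replicate block, 212 (52 and 89) in the 6 arrays of hour 7 alone with pairing, 0 (0 and 0) in the 6 arrays without it (865 probe sets at an unadjusted p under 0.05 in limma), and 112 (28 and 48) relative to the difference at time 0. Leaving out a letter gave 234 to 245 probe sets, 41 to 84 genes higher and 78 to 115 lower, from fewer pairs. Of the 97 named genes called, 19 stayed called without the block, 56 in the 6 arrays paired, 0 in the 6 arrays unpaired, 35 relative to time 0, and 52 to 58 without a letter, with 37 in all 3. Of the 1084 list genes tested, the number called was 130 in the main fit, 15, 54, 0 and 29 in the same settings, and 48 to 66 without a letter. Each setting was counted afresh, so these need not be among the 130. Without the block, calls against hours 1 and 2 numbered 9 probe sets, against 441 with it, and changes from time 0 numbered 61 in the insulin culture, against 900, and 468 in the control culture, against 2289. The filters, the variance trend, centring, the spread without letter b of hours 0 to 5 and the mean over probe sets kept every count within 1.5 times. The balance of directions moved with centring, to 219 genes higher and 231 lower. The sign turned in Insr without a letter (-0.15 to 0.003), Pik3r1 relative to time 0 (0.078) and Srebf1 with centred arrays (0.0036), relative to time 0 (0.031), without a letter (-0.20 to 0.16) and as the mean of its probe sets (0.0039), none of them called. Of 58 dimmer probe sets of 37 called named genes 55 had the same sign and 25 were called the same way. The median SE of 0.11 limits which small differences can be called. The cause of the lower counts without the block was not tested.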
